A study of Mus musculus with 9 samples.

Results

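The SR splicing factors analysed here are 10 genes, Srsf1, Srsf2, Srsf3, Srsf4, Srsf5, Srsf6, Srsf7, Srsf10, Tra2a and Tra2b, taken by gene symbol from the 20189 genes of the count table. All 10 were found and all had counts in every library, so none was lost to the minimum of 1 count over all libraries that 20143 genes passed. SR proteins carry at least a single RNA recognition motif and a region rich in arginine and serine. They bind enhancer sequences in exons, help the spliceosome to recognise the neighbouring splice sites, and are phosphorylated in the RS region by SRPK kinases in the cytoplasm and CLK kinases in the nucleus. Many SR genes limit their own output by splicing a poison exon or retaining an intron, so that part of the transcript is sent to nonsense-mediated decay (NMD). In pluripotent cells SR proteins also act in mRNA export and in the choice of isoforms that go with self-renewal.

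The data are poly(A) RNA-seq of E14 cells, a wild-type mouse embryonic stem (ES) cell line that was kept on gelatin with serum and leukemia inhibitory factor. There were 3 libraries of unstarved cells, 3 of cells starved of cysteine (-Cys) and 3 of cells starved of threonine (-Thr). Each starvation lasted 3 h. The titles of the libraries give the missing amino acid, whereas the medium described with them names only Arg and Leu. In the paper's starvation protocols cells were washed with PBS and given medium with dialyzed serum. For RNA-seq the paper does not state whether unstarved cells had the same wash and medium, and the part of this handling was not tested. A single line was used, and nothing states that the 3 libraries of a group came from separate cultures, so p-values measure the spread between these libraries, which may be technical. Libraries held between 48763102 and 74962733 counts, and the members summed over the 9 libraries between 17737 counts (Srsf4) and 391370 counts (Srsf1). The 8 pluripotency markers checked were all present in each library at 146 CPM (counts relative to the library total, scaled by edgeR's TMM factor) or more and summed to 3907 to 3932 CPM in unstarved, 3728 to 3754 CPM in -Cys and 4137 to 4217 CPM in -Thr libraries. Of these 8 markers, 4 were called higher and 4 lower without Thr, and 3 higher and 5 lower without Cys. Without Thr Klf4 rose by 0.85 and Nanog fell by 0.42 on the log2 scale. Markers of fibroblasts, primitive endoderm and trophoblast summed to at most 15.6 CPM per list in any library. Of the 4 primitive endoderm markers, 3 were called higher and 0 lower without Thr, among them Foxa2 by 1.73 and Sox17 by 1.20 on the log2 scale, and 2 were higher and 0 lower without Cys. Of 5 fibroblast markers, 2 were lower and 0 higher without Thr and none was called without Cys. Of 3 trophoblast markers, 1 was higher and 1 lower without Thr and 1 was higher without Cys. The 3 neural markers in the table summed to 160 to 166 CPM in unstarved, 198 to 204 CPM in -Cys and 82.2 to 85.6 CPM in -Thr libraries. The lower sum without Thr was that of Tubb3, which fell by 1.28 on the log2 scale, while Sox1 rose by 0.88 and Pax6 was not called (0.13), and all 3 were higher without Cys. The part of these marker differences in the results was not tested.

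The promoters of 4 members are shown because they belong to the genes that moved most or moved against the others. Tra2a and Tra2b rose most without Thr, Srsf5 fell without Thr, and Srsf2 had the largest change without Cys. Each line holds the 250 bases before the RefSeq start in GRCm38.p6, written 5′ to 3′ on the strand of the gene. The positions are chr6:49264053-49264302 (minus strand) for Tra2a, chr16:22266006-22266255 (minus) for Tra2b, chr12:80945249-80945498 (plus) for Srsf5 and chr11:116853095-116853344 (minus) for Srsf2. Capitals mark matches, on either strand, to the TATA box letters TATAAA, the CCAAT box, the GC box core GGGCGG, or the cAMP response element TGACGTCA. The window of Srsf3 is not shown since it runs into an annotated first exon. Windows of Srsf4, Srsf7 and Srsf10 also reach into the annotated gene, that of Srsf10 in full. All of these windows are counted in the tallies below.
Tra2a: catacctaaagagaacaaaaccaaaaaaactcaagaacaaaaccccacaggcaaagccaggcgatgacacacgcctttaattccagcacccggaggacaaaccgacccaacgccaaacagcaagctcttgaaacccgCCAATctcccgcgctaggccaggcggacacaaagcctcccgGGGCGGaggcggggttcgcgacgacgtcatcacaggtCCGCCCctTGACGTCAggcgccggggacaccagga
Tra2b: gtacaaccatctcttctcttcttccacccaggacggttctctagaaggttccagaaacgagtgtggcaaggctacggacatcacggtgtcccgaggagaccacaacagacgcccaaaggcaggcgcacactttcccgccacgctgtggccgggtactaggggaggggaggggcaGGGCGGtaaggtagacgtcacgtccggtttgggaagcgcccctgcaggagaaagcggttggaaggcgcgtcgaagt
Srsf5: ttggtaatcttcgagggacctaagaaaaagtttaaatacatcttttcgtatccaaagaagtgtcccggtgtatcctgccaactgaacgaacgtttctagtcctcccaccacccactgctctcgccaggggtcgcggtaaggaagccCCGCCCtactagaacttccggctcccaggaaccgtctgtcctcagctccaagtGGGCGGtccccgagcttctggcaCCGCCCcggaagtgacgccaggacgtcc
Srsf2: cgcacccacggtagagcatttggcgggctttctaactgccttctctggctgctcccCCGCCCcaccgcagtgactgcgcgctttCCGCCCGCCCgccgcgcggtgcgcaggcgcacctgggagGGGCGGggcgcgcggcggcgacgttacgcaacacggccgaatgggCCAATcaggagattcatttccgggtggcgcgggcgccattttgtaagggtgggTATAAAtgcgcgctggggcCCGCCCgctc

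RefSeq windows were found for all 10 members. GGGCGG, the core of the GC box, stood in the windows of 9 of 10 members, all but Srsf3, and in 32.7% of the 32851 windows of all genes. The windows of the members ranged from 56.8% to 78.0% GC, while the median of all windows was 52.4%. CCAAT was present in 4 of 10 members (33.8% of all windows) and TATAAA in Srsf2 and Srsf3 (12.4%). The E-box CACGTG (6.02%) and TGATGCAA, the composite letters bound by ATF4 with C/EBP partners (0.791%), were not found in a member's window. TGACGTCA, the cAMP response element, was searched after the windows had been read, and stood in Tra2a alone (1.55% of all windows). GGGCGG matches can overlap each other, as in Srsf2, and no match beyond these letters was sought.

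Thr starvation moved all 10 SR genes, 8 upward and 2 downward. The pair of transformer-2 genes rose most, Tra2a 2.92-fold and Tra2b 2.03-fold, followed by Srsf1, Srsf10 and Srsf4, with smaller increases of Srsf7, Srsf6 and Srsf2. Srsf3 and Srsf5 fell. These calls rest on the edgeR quasi-likelihood test with Benjamini-Hochberg adjustment over all genes, at an adjusted p of 0.05. Calls were common in this comparison, with 63.0% of the 20143 genes tested called, 31.1% higher and 31.9% lower. The 3 -Thr libraries lay outside the range of the 3 unstarved libraries for all 10 members, as they did for 66.5% of all genes. The median log2 fold change of the members was 0.31, against -0.02 over all genes tested. As these are bulk libraries, fewer cells of a type and less RNA per cell cannot be told apart.

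**Figure D1:**
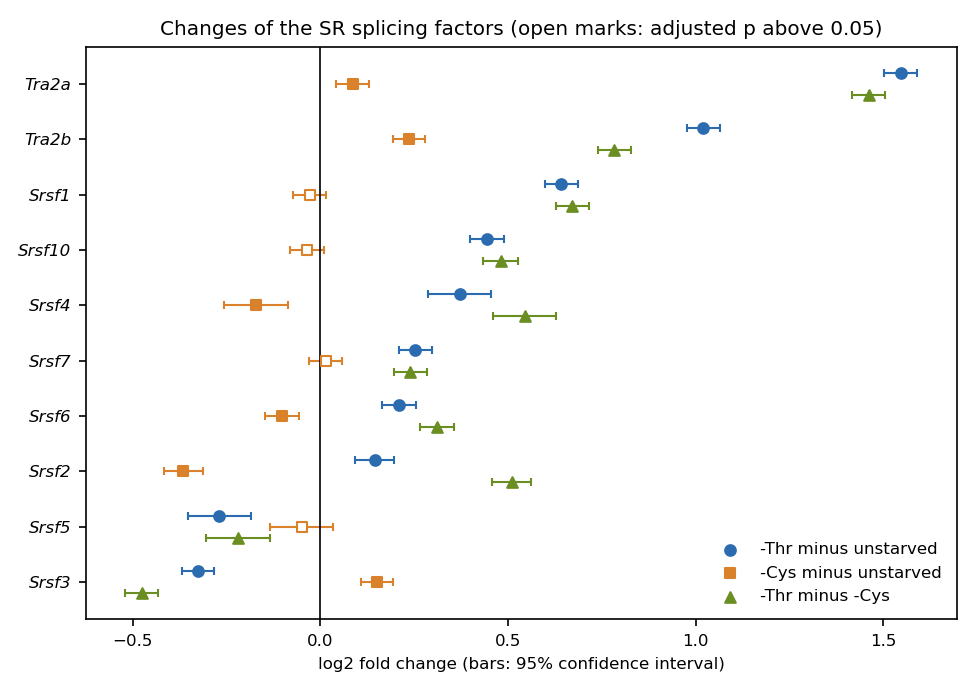
Log2 fold changes of the 10 SR genes (x axis) with 95% confidence intervals, for -Thr against unstarved (circles), -Cys against unstarved (squares) and -Thr against -Cys (triangles), 3 libraries a group. Tra2a at 1.55 and Tra2b at 1.02 lie farthest to the right without Thr, Srsf3 and Srsf5 lie below 0, and the 4 open squares are members not called without Cys.

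Cys starvation gave smaller and mixed changes. Tra2b, Srsf3 and Tra2a were higher, Srsf2, Srsf4 and Srsf6 were lower, and Srsf1, Srsf5, Srsf7 and Srsf10 did not pass the test. Of all genes tested, 36.3% were called, 17.5% higher and 18.8% lower, beside the 6 of 10 members. Groups did not overlap for 6 of 10 members and for 46.4% of all genes. The median log2 fold change was -0.03 for the members and 0.01 for all genes. The 4 members that missed the threshold had log2 fold changes with 95% intervals of -0.07 to 0.01 (Srsf1), -0.13 to 0.03 (Srsf5), -0.03 to 0.06 (Srsf7) and -0.08 to 0.01 (Srsf10). The split of calls in this comparison depended on the scaling of the libraries. Over all genes it was 3523 higher and 3790 lower with TMM factors, and 2787 higher and 4786 lower with the deposited size factors. RLE factors gave 3431 higher and 3879 lower. For the members the deposited size factors gave 2 higher and 5 lower, with a median of -0.07. With RLE factors the members were 3 higher and 3 lower, the same split as with TMM factors, and their median was -0.04.

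**Figure D2:**
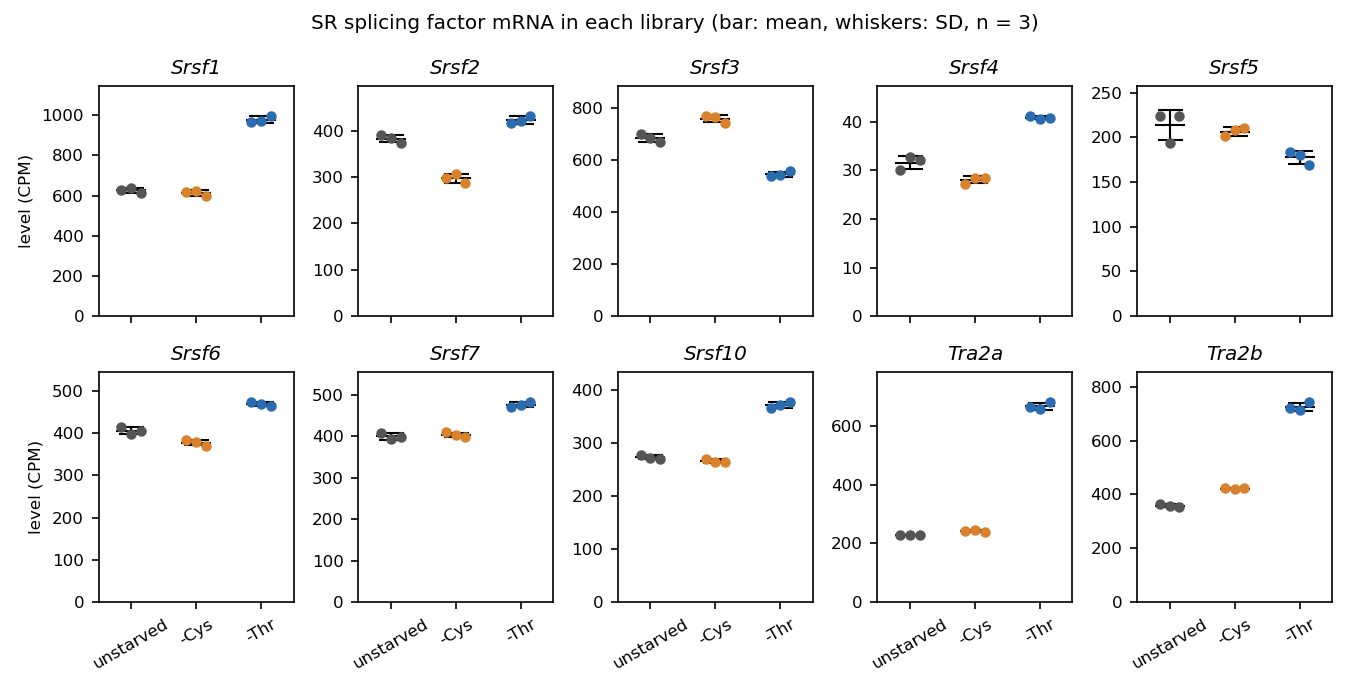
Level in CPM (y axis from 0) of each SR gene in the 9 libraries by group. Points are libraries, the bar is the mean and whiskers are the SD of 3 libraries. For Tra2a the -Thr libraries lie between 657 and 680 CPM and all others at or below 246 CPM.

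Tra2a and Tra2b encode the sequence-specific activators that bind GAA-rich exonic enhancers, and are paralogs that regulate each other through poison exons. Tra2a (ENSMUSG00000029817, chr6:49243924-49264033, minus strand) was measured at 230.0, 228 and 228 CPM in the unstarved libraries, at 242, 246 and 239.6 CPM without Cys and at 664, 657 and 680.4 CPM without Thr. All 3 groups were separate, and the -Thr libraries stood far above the rest. The log2 fold change was 1.55 (SE 0.021, adjusted p = 1.4e-23) without Thr, which ranked 102 among the 11410 genes that averaged 5 CPM or above, and 0.09 (SE 0.021, adjusted p = 0.0028) without Cys. With the deposited size factors the Cys change of Tra2a was 0.04 and no longer passed (adjusted p = 0.14).

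Tra2b (ENSMUSG00000022858, chr16:22244549-22266005, minus strand) had 364, 357 and 352 CPM in unstarved, 422, 419.7 and 423 CPM in -Cys and 721, 714 and 742 CPM in -Thr libraries. It rose in both starvations, with no overlap between any of the groups. The log2 fold change was 1.02 (SE 0.021, adjusted p = 5.9e-21, rank 392 of 11410) without Thr and 0.24 (SE 0.021, adjusted p = 5.5e-09) without Cys. Together the transformer-2 genes made up 16.2% to 16.3% of the members' summed CPM in unstarved, 18.2% to 18.6% in -Cys and 28.3% to 28.8% in -Thr libraries.

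Srsf1, Srsf3 and Srsf7 encode shuttling SR proteins that bind spliced mRNA and serve as adaptors for its export. Srsf1, which encodes the founding member of the family (chr11:88047373-88053755, plus strand), had 628, 639 and 613 CPM in unstarved, 620.1, 625 and 597 CPM in -Cys and 964, 971 and 996 CPM in -Thr libraries. The -Thr libraries were higher than all others, while the unstarved and -Cys libraries overlapped. Its log2 fold change without Thr was 0.64 (SE 0.021, adjusted p = 3.1e-17). Without Cys it was -0.03 (adjusted p = 0.32).

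Srsf3, which encodes the smallest of the classical SR proteins (chr17:29032628-29043373, plus strand), had 699, 685 and 669.8 CPM in unstarved, 769.5, 765 and 744 CPM in -Cys and 538, 543 and 556 CPM in -Thr libraries. It moved in opposite directions in the starvations, and the groups did not overlap. It fell by 0.33 on the log2 scale without Thr (SE 0.021, adjusted p = 2.9e-12) and rose by 0.15 without Cys (SE 0.021, adjusted p = 4.2e-06). Srsf7 (chr17:80200080-80207307, minus strand), whose protein is close to that of Srsf3 and carries in addition a zinc knuckle, had 409, 393 and 398 CPM in unstarved, 409.8, 402 and 399.5 CPM in -Cys and 471, 476 and 482 CPM in -Thr libraries. Only its -Thr libraries were set apart from the unstarved ones. The log2 fold change was 0.25 without Thr (SE 0.021, adjusted p = 4.6e-10) and 0.01 without Cys (adjusted p = 0.67).

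Srsf2 encodes the SR protein that is also named SC35. Srsf2 (chr11:116849901-116853094, minus strand) had 390.5, 384 and 374 CPM in unstarved, 297, 307 and 288 CPM in -Cys and 416, 422 and 432 CPM in -Thr libraries. The groups stood apart, low without Cys and slightly high without Thr. Its log2 fold change of -0.37 (SE 0.025, adjusted p = 1.1e-10) was the largest of the members without Cys, and that without Thr was 0.14 (SE 0.025, adjusted p = 2.1e-05). The exons of Srsf2 share 460 bp with Mettl23 and 288 bp with Mfsd11 on the opposite strand, and the strand setting of the counting is not given in the sources used here. These neighbours had 3229 and 8534 counts over the 9 libraries.

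Srsf4, Srsf5 and Srsf6 encode closely related SR proteins that each hold a pair of RNA recognition motifs. Srsf4 (chr4:131873617-131901706, plus strand) was the least abundant member, with 30.05, 32.7 and 32.1 CPM in unstarved, 27.2, 28.5 and 28.4 CPM in -Cys and 41.2, 40.7 and 40.9 CPM in -Thr libraries. Its groups did not overlap. The log2 fold change was 0.37 (SE 0.040, adjusted p = 3.2e-08) without Thr and -0.17 (SE 0.041, adjusted p = 0.0019) without Cys. Of its exon length 43.02% is shared with Gm12992 on the opposite strand, which had 82 counts in all.

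Srsf5 (chr12:80945504-80950507, plus strand) had 224, 194 and 224 CPM in unstarved, 201, 208 and 210.5 CPM in -Cys and 184, 180.1 and 169 CPM in -Thr libraries. The second unstarved library lay below the others of its group and below all -Cys libraries, but above the -Thr libraries. The log2 fold change was -0.27 without Thr (SE 0.041, adjusted p = 4.6e-06) and -0.05 without Cys (adjusted p = 0.37). Without that library the Cys change was -0.12 and passed (adjusted p = 0.0061). Srsf6 (chr2:162931528-162937121, plus strand) had 414, 397 and 405 CPM in unstarved, 384, 378 and 370.4 CPM in -Cys and 473, 468 and 463 CPM in -Thr libraries. Its groups were separate in both directions, with log2 fold changes of 0.21 without Thr (SE 0.022, adjusted p = 1.4e-08) and -0.10 without Cys (SE 0.022, adjusted p = 6.0e-04). Its Thr call was lost when GC content and transcript length were fitted as offsets, which left 0.03 (adjusted p = 0.15).

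Srsf10 encodes an SR-like protein that acts as a splicing repressor once it is dephosphorylated, as in heat shock. Srsf10 (chr4:135855747-135869908, plus strand) had 278, 272 and 271 CPM in unstarved, 271, 266 and 264 CPM in -Cys and 368, 372 and 378 CPM in -Thr libraries. The -Thr libraries were above all others, and the unstarved and -Cys libraries overlapped. The log2 fold change was 0.44 without Thr (SE 0.022, adjusted p = 3.9e-14) and -0.04 without Cys (adjusted p = 0.23).

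The change without Thr and the change without Cys were measured against the same unstarved libraries, so the difference between them was tested directly between -Thr and -Cys libraries. All 10 members differed, 8 higher and 2 lower without Thr, beside 62.0% of all genes tested (30.4% higher and 31.6% lower). For all 10 the libraries did not overlap, as for 65.8% of all genes. The median log2 difference was 0.49 for the members and -0.02 for all genes. Tra2a differed most, by 1.46 (adjusted p = 9.3e-23), ranking 64 of 11410. Tra2b differed by 0.78, Srsf1 by 0.67, Srsf4 by 0.54 and Srsf2 by 0.51. Srsf10 differed by 0.48, Srsf6 by 0.31 and Srsf7 by 0.24. Srsf3 was lower without Thr by a log2 difference of -0.48 (adjusted p = 4.6e-15), and Srsf5 by -0.22 (adjusted p = 6.6e-05).

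Related SR genes moved to different extents, so their ratios within a library, which do not depend on the scaling between libraries, also changed. The log2 ratio of Tra2a to Tra2b was -0.66, -0.65 and -0.63 in unstarved, -0.80, -0.77 and -0.82 in -Cys and -0.12, -0.12 and -0.13 in -Thr libraries. Thus Tra2a was at 0.639 of the Tra2b count in unstarved, at 0.575 in -Cys and at 0.919 in -Thr cells. The log2 ratio of Srsf3 to Srsf7 was 0.77, 0.80 and 0.75 in unstarved, 0.91, 0.93 and 0.90 in -Cys and 0.19, 0.19 and 0.21 in -Thr libraries. For both pairs the 3 groups did not overlap. The log2 ratio of Srsf5 to Srsf6 was -0.88, -1.03 and -0.85 in unstarved, -0.93, -0.86 and -0.81 in -Cys and -1.36, -1.38 and -1.45 in -Thr libraries, so that only the -Thr libraries were set apart. With 3 against 3 libraries the exact two-sided permutation test cannot go below p = 0.1, and 8 of the 9 tests gave this value (0.1125 after Benjamini-Hochberg adjustment over 9). The remaining test, of Srsf5 to Srsf6 between -Cys and unstarved libraries, gave an exact p of 0.6.

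**Figure D3:**
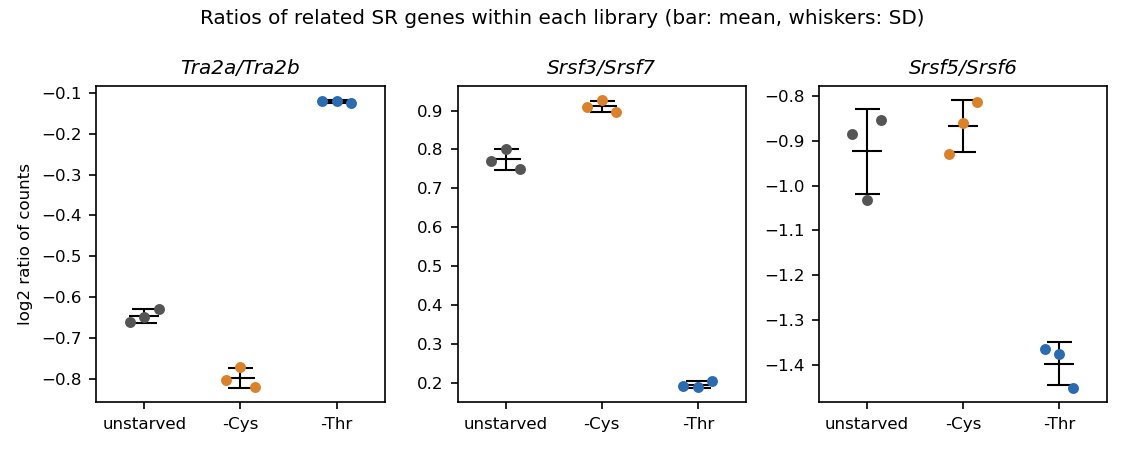
Log2 ratio of counts (y axis, a separate range in each panel that does not start at 0) of Tra2a to Tra2b, Srsf3 to Srsf7 and Srsf5 to Srsf6 in each library by group, with the mean and SD. Without Thr the first ratio is higher and the other ratios are lower than in any other library.

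The levels of different members were compared per length, as CPM per kb of all annotated exon bases of the gene. In unstarved cells Srsf2 was highest with 129 ± 2.74 CPM per kb (SD, n = 3), followed by Srsf7 with 113 ± 2.37 and Srsf1 with 109.7 ± 2.26. Srsf3 (86.7) and Srsf6 (84.3) came next, then Srsf5 (53.6), Srsf10 (39.1), Tra2b (38.7) and Tra2a (32.9), and Srsf4 was lowest with 8.88 CPM per kb. Neighbours in this order whose libraries overlapped were Srsf7 and Srsf1, Srsf3 and Srsf6, and Srsf10 and Tra2b. Without Cys the order began with Srsf7 (114), Srsf1 (108) and Srsf2 (100.5), followed by Srsf3 (96.2) and Srsf6 (78.5). It went on with Srsf5 (51.8), Tra2b (45.7), Srsf10 (38.1), Tra2a (34.9) and Srsf4 (7.88), and no neighbours overlapped. Without Thr Srsf1 led with 171 ± 2.98 CPM per kb, ahead of Srsf2 (143) and Srsf7 (134). Tra2a reached 96.0 CPM per kb, level with Srsf6 (97.4) within the spread of their libraries, and stood above Tra2b (78.6), Srsf3 (69.1), Srsf10 (53.2), Srsf5 (44.5) and Srsf4 (11.5). The order depends on the length used. Srsf1 has 5710 exon bases and a longest transcript of 5362 bases, where Srsf2 has 2958 and 1899. Without Thr, the lead of Srsf1 and the place of Tra2a above Tra2b hold per kb of exon, but not per kb of the longest transcript. Per kb of the longest transcript, the unstarved levels were 202 for Srsf2, 171 for Srsf3, 166 for Srsf7, 117 for Srsf1, 115 for Srsf6, 87.0 for Tra2b, 72.9 for Srsf10, 61.4 for Srsf5, 60.3 for Tra2a and 10.2 for Srsf4. The 10 members held 0.352% to 0.364% of all counts in unstarved, 0.368% to 0.377% in -Cys and 0.472% to 0.484% in -Thr libraries. Their summed level was 3567 to 3666 CPM, 3566 to 3645 CPM and 4839.7 to 4941 CPM, so the unstarved and -Cys sums overlapped while the -Thr sums were higher.

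**Figure D4:**
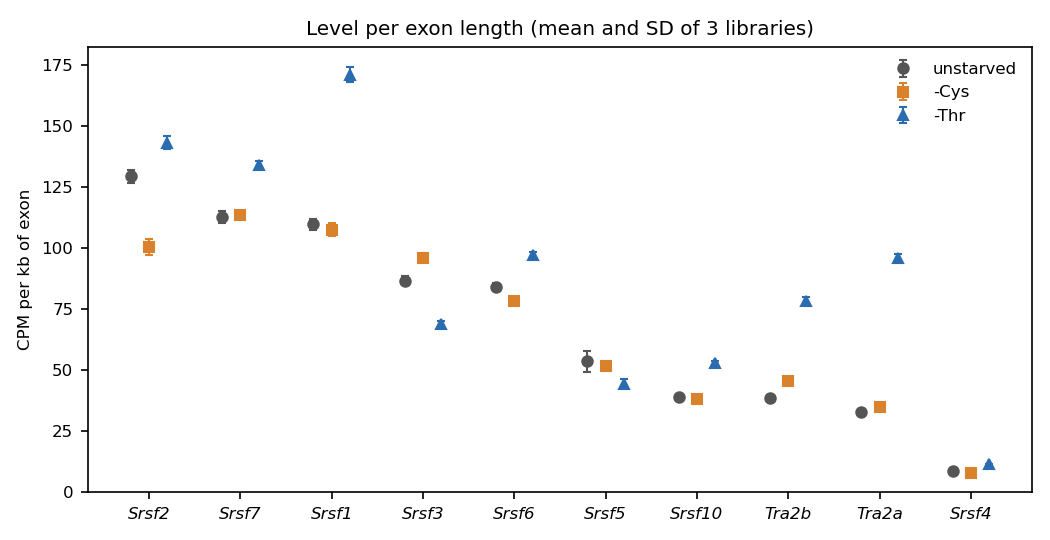
Level of each SR gene per length (CPM per kb of exon, y axis from 0), mean and SD of 3 libraries a group, ordered by the unstarved level. Srsf1 is the highest point without Thr at 171, and Tra2a moves from 32.9 to 96.0.

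Parts of some members are repeated elsewhere in the genome, mostly in processed pseudogenes, which are intronless copies of the spliced mRNA, and reads from such stretches can be assigned to either. Stretches of at least 86 bases with at least 97% identity were sought in all annotated transcripts, and 11 copies of at least 110 bases away from the gene itself belonged to Srsf3, Srsf5, Srsf10 and Tra2b. Srsf6, Srsf7 and Tra2a had no match. The copies with most counts were Gm12355, at 24.7% of the count of Srsf3, Gm10254, at 24.1% of that of Tra2b, Gm9761, at 18.7% of that of Srsf3, and Gm12966, at 17.2% of that of Srsf5. Each of the 11 copies was called in the direction of its member without Thr. Gm10254 had a log2 fold change of 0.98 without Thr, where Tra2b had 1.02. Copies of the falling members fell further than the member itself. Gm12355 fell by 0.50 and Gm9761 by 0.59 on the log2 scale, where Srsf3 fell by 0.33, and Gm12966 fell by 0.71, where Srsf5 fell by 0.27. With the counts of the copies added to the member, the log2 fold change without Thr was -0.39 for Srsf3, -0.33 for Srsf5, 0.45 for Srsf10 and 1.01 for Tra2b, and no member's call changed in any comparison. The levels, their order and the ratios given above leave out the counts of these copies, and were not recomputed with them.

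The annotation lists at least 1 NMD transcript for 9 of the 10 members, all but Srsf10, against 30.4% of the 9756 other coding genes at 5 CPM or more. A retained-intron transcript is also listed for 9 of 10 members and for 62.6% of the other genes. Counts per gene pool all of these transcripts, so the levels given here do not separate productive from NMD-annotated mRNA. The longest transcripts of the members held 39.7% to 53.0% GC (median 41.5%), and 8 of 10 lay below the median of 49.3% of the other genes. Across these 9756 genes the log2 fold change went with GC content by a Spearman rho of -0.31 without Thr and -0.07 without Cys, a description across genes that share the same libraries. With GC content and length as offsets, the log2 fold change without Thr was 1.43 for Tra2a, 0.75 for Tra2b, 0.37 for Srsf1, 0.23 for Srsf10, 0.07 for Srsf7, -0.56 for Srsf3 and -0.52 for Srsf5, and the median of the members was 0.18.

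Genes that act with the SR proteins were then counted by lists. Among 12 other SR and SR-related genes, 7 rose and 2 fell without Thr (median log2 fold change 0.31), and 4 rose and 3 fell without Cys (0.01). With GC content and length as offsets, 7 rose and 3 fell without Thr (median 0.20). Srrm4, a neuronal microexon activator, rose by 1.18 and Son, a speckle scaffold, by 0.64 without Thr, while Acin1 fell by 0.44 and Srsf9 by 0.08, a call of Srsf9 that RLE scaling lost (adjusted p = 0.056). Without Cys Srsf12 rose by 0.63 and Srrm4 by 0.56, and Srek1 and Srsf11 each fell by 0.14. Srrm4 and Srsf12 were hardly expressed, with unstarved means of 0.73 and 0.74 CPM, where Son had 377 CPM. With the deposited size factors the Cys count of this list turned to 3 higher and 6 lower (median -0.03). The kinases that phosphorylate SR proteins and the SR importer Tnpo3 gave 7 rises and 2 falls among 9 genes without Thr (median 0.22). With the GC and length offsets they gave 6 and 3 (median 0.38). The nuclear kinases Clk4 (1.29, SE 0.046, adjusted p = 1.1e-16) and Clk1 (1.00, SE 0.028, adjusted p = 1.7e-18) rose most, and the cytoplasmic kinases Srpk2 and Srpk1 fell by 0.72 and 0.25. Without Cys 1 of the 9 rose, Clk1 by 0.21, and 3 fell, of which Prpf4b fell by 0.29 and Srpk2 by 0.15.

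hnRNP proteins often oppose SR proteins on the same exons. Of 27 hnRNP genes, 18 rose and 6 fell without Thr (median 0.12), with Hnrnph3 (0.84) and Hnrnpll (0.61) at the top and Hnrnph1 (-0.20) and Hnrnpab (-0.15) at the bottom. The offsets for GC content and length gave 15 higher and 9 lower. Without Cys 4 rose and 14 fell (median -0.05), and the ends were Hnrnph3 (0.28) and Ptbp3 (0.08) against Ptbp2 (-0.25) and Hnrnpr (-0.19). With the deposited size factors these counts were 1 and 20, with the GC and length offsets 2 and 17, and Ptbp3 was called in neither. Core spliceosome proteins numbered 33, of which 15 rose and 9 fell without Thr (median 0.02), or 18 and 15 with the GC and length offsets (median 0.10). Sf3a2, of the U2 particle, rose by 0.69 and the common core protein Snrpb by 0.55, and Prpf31, of the tri-snRNP, fell by 0.71 and Snrpg by 0.47. Without Cys 6 rose and 19 fell (median -0.10), with Snrnp40 (-0.66) and Snrpf (-0.54) lowest and Sf3a2 (0.48) and Sf3b4 (0.31) highest. With the deposited size factors the spliceosome counts without Cys were 5 and 22, and with the GC and length offsets 5 and 20.

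Among 15 other regulators of alternative splicing, 10 rose and 4 fell without Thr (median 0.25), and 5 rose and 5 fell without Cys (0.03). Rbm4 (0.97) and Rbm25 (0.83) rose most without Thr, and the epithelial regulators Esrp2 (-0.74) and Esrp1 (-0.53) fell most. Rbm4 and Esrp2 were low, with unstarved means of 2.89 and 9.93 CPM, where Rbm25 had 263 CPM. With GC content and length as offsets this list gave 7 higher and 6 lower without Thr (median 0.13), and with the deposited size factors 4 higher and 6 lower without Cys (median -0.01), where the offsets gave 3 and 6. Without Cys Mbnl2 rose by 0.36 and Tia1 by 0.30, and Esrp1 fell by 0.30. The 15 genes of NMD and the exon junction complex, the pathway that clears poison-exon transcripts, gave 11 rises and 3 falls without Thr (median 0.45) and 8 rises and 5 falls without Cys (0.13). Smg9 (0.86) and Smg5 (0.71) rose and Smg8 (-0.34) and Magoh (-0.14) fell without Thr. Casc3 (0.35) and Upf1 (0.31) rose and Rbm8a (-0.23) and Upf3a (-0.20) fell without Cys. Beside all of these counts stand the shares of all genes called, 31.1% higher and 31.9% lower without Thr and 17.5% higher and 18.8% lower without Cys.

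**Figure D5:**
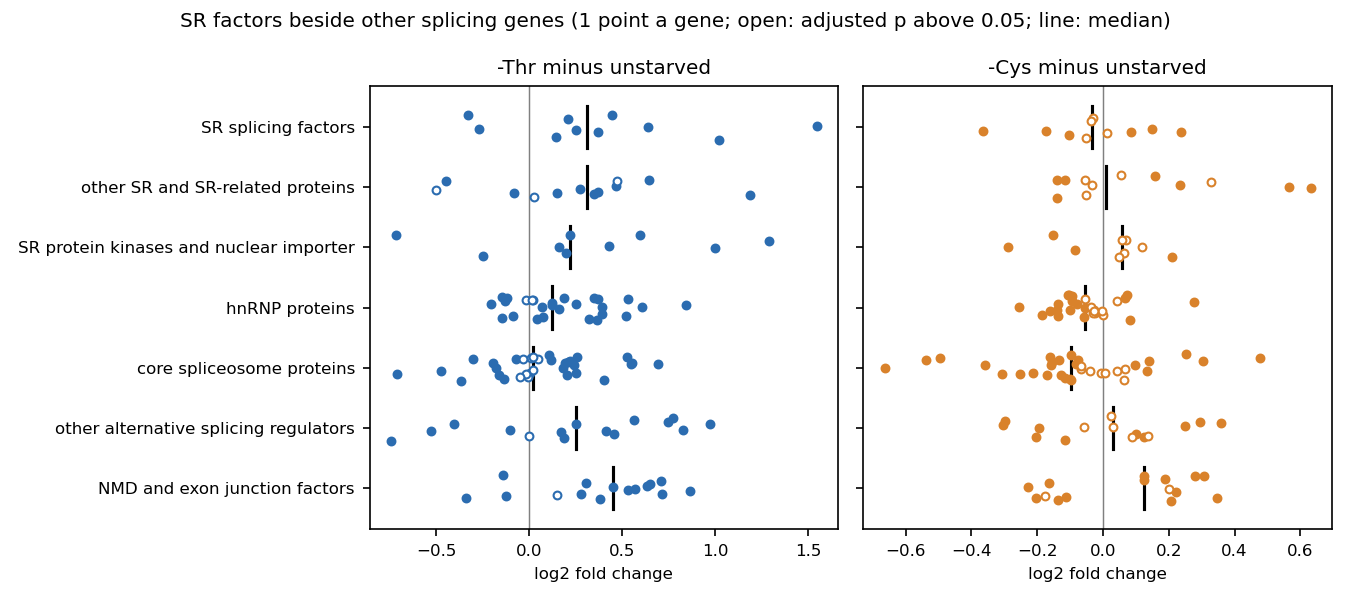
Log2 fold change (x axis, a separate range in each panel) of every gene of the 10 SR splicing factors and 6 further lists, without Thr (left) and without Cys (right), where each point is a gene, filled if called, and the line is the list's median. Without Thr the SR genes have a median of 0.31 and Tra2a is the point farthest to the right.

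The genes whose levels over the 9 libraries were most like those of Tra2a, by Pearson r of log2 CPM, were H3f3b (histone H3.3), Orc6, Fam122b, Arih1 and Azin1, each with an r of 0.999 or above. For Tra2a 382 of 11409 genes had r of at least 0.99, and these points share 3 groups and their libraries. For Srsf2, the member with the largest Cys change, the closest were Exosc7, Tspan6, Rpl7, Cyb5b and Xpo1 (r from 0.993 to 0.999), and 12 genes reached 0.99. Without Cys the log2 fold change of Tspan6 was -1.12 and that of Exosc7 was -0.13, where Srsf2 had -0.37.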

How the data were processed

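E14 ES cells were profiled by paired-end poly(A) RNA-seq, with 3 libraries in each of 3 groups. The authors mapped reads to GRCm38 with STAR 2.7.4a, used HTSeq for gene counts, and deposited these counts unscaled; strand and overlap settings are not given in the sources used here. Even numbers make up 67.8% of the counts from 1 to 20. The authors, who describe scaling by DESeq2 size factors, also deposited a table of signal values, the same counts divided by a single factor per library. These factors served here as an alternative scaling. They differ from those of DESeq2 run here on the 9 libraries. Without Cys the median log2 fold change over all genes was 0.002 with DESeq2 and -0.035 with the deposited factors. Why they differ was not tested. Genes were tested with edgeR 4.0.16 (R 4.3.3) with TMM factors and quasi-likelihood F tests in a single fit of all 9 libraries and 20143 genes, with Benjamini-Hochberg adjustment over all genes and calls at 0.05. SE is the log2 fold change divided by the root of F, and CPM is TMM-scaled. Genes were named by GENCODE M21, near-identical stretches found with BLAST 2.17.0, and levels plotted per kb of union exon length.

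The members and lists were chosen with earlier results of these data known. Named genes are the members, in each list the 2 called genes that rose and the 2 that fell most without Thr and without Cys, and the 5 genes most like Tra2a and Srsf2. A gene that this rule names is not reported here. On simulated counts for the Thr comparison, edgeR recovered 194 of 200 changed genes with 14 false calls, over 20143 genes. The simulation changed few genes, all well counted and as many up as down, with the same dispersion for every gene. It therefore cannot test the scaling or the calls of small changes in the real data. Same-group libraries differed by more than counting noise for genes with a summed count of 20000 or more, with a mean chi-square per gene of 6.53 to 74.1. For genes with low counts it was 1.98 to 2.13. Same-numbered libraries did not deviate together, so replicates were not paired. Alternatives were DESeq2 1.42.0, RLE and deposited size factors, filterByExpr, only the groups compared, GC and length offsets, a fold minimum, a replicate block, leaving out each library and, added after the data were seen, halved counts and counts with near-identical copies added. Total counts per library limit the precision of counting error only.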

Additional observations from a re-analysis of the deposited data

How the results depend on the processing

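Every Thr call, and every call between -Thr and -Cys libraries, kept its direction and side of the threshold in all 9 fits that left out a library and under DESeq2, RLE and deposited size factors, filterByExpr, halved counts, added copies and fits of only the groups compared. The exception under GC and length offsets was Srsf6 without Thr. Without Thr 8 members were higher and 2 lower in each fit that left out a library, and without Cys 3 were higher and between 3 and 4 lower, the extra call being Srsf5 without unstarved replicate 2. With a minimum absolute log2 fold change of 0.5, 3 members were higher and 0 lower without Thr, 0 higher and 0 lower without Cys, and 5 higher and 0 lower between -Thr and -Cys libraries.

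The Cys calls of small changes depended on which scaling was used. DESeq2 and RLE factors left the Cys result of all 10 members the same as TMM factors. The number lower without Cys was 5 with deposited size factors and 6 with GC and length offsets, and the cause was not tested. Srsf1 then passed at -0.07 and -0.08, and Srsf10 at -0.08 and -0.07. Srsf5 passed at -0.10 with the offsets. Srsf7, not called, changed sign to -0.028 with deposited size factors and -0.011 with the offsets, and lay between -2.1e-05 (without unstarved replicate 2) and 0.027 when a library was left out. The deposited size factors also gave 6756 genes higher and 5862 lower between -Thr and -Cys libraries, against 6123 and 6365 with TMM.

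With the replicate number as a block, the members were 8 higher and 2 lower without Thr, 3 and 3 without Cys and 8 and 2 between the starvations, so no call changed. Same-numbered libraries correlated in their deviations from the group means at between -0.24 and 0.11, which does not pair them. Depth limited Srsf4 most, at 1693 counts in its lowest library.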

Other observations

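Between -Thr and -Cys libraries, the other splicing genes also differed in each list. The genes named here are among those at the ends of their lists in this comparison and were chosen after their values were seen. The U2AF- and SR-related factor Rbm39 was higher without Thr by 0.97 on the log2 scale (edgeR, adjusted p = 3.0e-20), as was Rbm25 by 1.03. In the same list, that of other splicing regulators, Esrp2 differed by -0.77. Of its 15 genes 7 were higher and 3 lower, or 5 and 6 with GC content and length as offsets. Clk4 was higher by 1.22 and Clk1 by 0.79, and Srpk2 differed by -0.57. In the spliceosome list Prpf6 was higher by 0.71 and Snrpd1 by 0.70, and Prpf31 differed by -0.78. Among hnRNP genes Ptbp2, the neuronal paralog of Ptbp1, was higher by 0.77 and Hnrnpll by 0.75, and Hnrnph1 differed by -0.28. Of 33 core spliceosome genes 22 were higher and 6 lower, and of 27 hnRNP genes 21 were higher and 3 lower, beside 30.4% and 31.6% of all genes tested. With GC content and length as offsets the spliceosome genes gave 18 higher and 5 lower and the hnRNP genes 16 and 6, and with the deposited size factors 27 and 6, and 23 and 2.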
